A study of Mus musculus with 20 samples.

Results

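The genes of glucose uptake, glycolysis and lactate handling were examined in mouse hearts as a set of 37 genes, from the glucose carriers of the cell membrane to lactate dehydrogenase, the lactate and pyruvate carriers and the glycerol phosphate shuttle. Members were chosen by name among the array's probes, with older names updated (Pkm2 is Pkm, Brp44l is Mpc1, Brp44 is Mpc2), and each gene was read from its probe with the brightest heart signal. All 37 had a probe, and 35 of them were among the 14564 genes tested out of 27656 named genes on the array. Gapdh and Pgm2 were not tested, because the heart signal of their probes cleared background on 2 and 1 of 20 arrays. The Gapdh probe was found by gene ID, and near-identical copies of that gene make its probe uncertain.

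Hearts of MuRF1 +/+ mice and of MuRF1 -/- mice, which lack a muscle ubiquitin ligase encoded by Trim63, were profiled on chow or on a diet holding fenofibrate at 0.05% of its weight. Fenofibrate is a lipid-lowering agonist of the nuclear receptor PPARα. There were 3 chow hearts, 4 hearts after 3 weeks of fenofibrate and 3 hearts after 8 weeks of fenofibrate in each genotype. Each heart was hybridised against one RNA pool of whole newborn pups, so a level below is the log2 ratio of heart over that pool, and levels of different genes cannot be ranked against each other. The chow hearts belong to the 8-week arm, so no chow group of matched duration stands beside the 3-week hearts, and the series text gives the mice as 3 to 8 weeks old and strain-matched. The labels give neither the strain nor the sex of each heart, nor the exons removed from MuRF1. They do not say whether hearts came from littermates, so p-values measure the spread between these hearts.

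Glucose enters the heart cell through GLUT1 (Slc2a1) and the insulin-responsive GLUT4 (Slc2a4), and is trapped by hexokinase. Phosphofructokinase commits it to glycolysis and is driven by fructose 2,6-bisphosphate, which the Pfkfb enzymes make and break down. The adult heart draws most of its energy from fatty acids and also burns lactate, and PPARα switches on genes of fatty acid use, among them Pdk4, which holds pyruvate back from oxidation.

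Promoter sequence was found in RefSeq (GRCm38.p6) for 34 of the 37 members, as 300 bases from 250 before to 50 after each start site, and not for Slc2a3, Slc2a4 and Gpd1. Of the members' 53 start sites, 24 (45.3%) held ACGTG, the core letters bound by hypoxia-inducible factors, on either strand, against 19.6% of all 32851 promoters. GCGTG, the variant of that core, was found at 27 sites (50.9%, against 32.4%), and CACGTG, the E-box of MYC and ChREBP, which contains ACGTG, at 6 (11.3%, against 7.2%). The Sp1-type box GGGCGG stood at 31 sites (58.5%, against 35.7%). The PPAR-type direct repeat (AGGTCA, any base, then the same letters again) was found at 0 of 53 sites and at 13 of all 32851. The members' windows were also richer in G and C (median 60.0%, against 52.7%), and these shares describe letters only. The upstream bases of Hk1, Hk2, Pfkfb2 and Txnip are shown because these members had the calls that held under every alternative tried. For Hk1 and Pfkfb2 the start site with the most matches to ACGTG or GCGTG was picked, so its matches are not typical of the gene. The other Hk1 start site held 0 matches, and each other Pfkfb2 start site held 1. Capitals mark matches to ACGTG or GCGTG on either strand.
Hk1 (chr10:62340422-62340671, GRCm38.p6, minus strand, 1 of 2 start sites): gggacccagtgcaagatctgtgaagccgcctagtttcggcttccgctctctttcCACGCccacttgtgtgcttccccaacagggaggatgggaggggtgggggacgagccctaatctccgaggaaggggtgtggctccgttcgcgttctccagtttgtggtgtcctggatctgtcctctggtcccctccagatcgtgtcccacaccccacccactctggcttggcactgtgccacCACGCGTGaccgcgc
Hk2 (chr6:82774455-82774704, GRCm38.p6, minus strand): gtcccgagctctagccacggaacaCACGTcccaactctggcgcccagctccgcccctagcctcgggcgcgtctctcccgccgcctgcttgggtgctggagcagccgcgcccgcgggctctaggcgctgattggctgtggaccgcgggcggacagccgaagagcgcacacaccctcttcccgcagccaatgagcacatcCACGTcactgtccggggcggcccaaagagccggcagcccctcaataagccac
Pfkfb2 (chr1:130715822-130716071, GRCm38.p6, minus strand, 1 of 3 start sites): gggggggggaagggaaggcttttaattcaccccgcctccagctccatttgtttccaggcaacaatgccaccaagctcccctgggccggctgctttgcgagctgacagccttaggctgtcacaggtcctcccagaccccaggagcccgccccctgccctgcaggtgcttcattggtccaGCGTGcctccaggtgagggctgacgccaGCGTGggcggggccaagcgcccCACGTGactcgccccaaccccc
Txnip (chr3:96557707-96557956, GRCm38.p6, plus strand): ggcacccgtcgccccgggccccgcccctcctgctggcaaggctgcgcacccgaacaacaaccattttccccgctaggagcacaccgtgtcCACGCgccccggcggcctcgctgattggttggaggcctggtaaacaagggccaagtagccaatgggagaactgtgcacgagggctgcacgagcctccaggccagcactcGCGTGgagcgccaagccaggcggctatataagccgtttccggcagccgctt
The Hk1 stretch held 3 matches to GCGTG and the Txnip stretch 2. The Hk2 stretch held 2 matches to ACGTG. In Pfkfb2, 2 GCGTG matches stood with 1 CACGTG box, which reads ACGTG on both strands.

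Between 34.0% and 51.9% of heart probes stood well above background on an array. Trim63 was at -1.19 to -0.49 in the MuRF1 -/- hearts and at 0.79 to 2.85 in the MuRF1 +/+ hearts, as labelled. Of these, -0.49 was MuRF1 -/- 3-week replicate 4 (others up to -0.94) and 0.79 was MuRF1 +/+ 8-week replicate 2 (others from 2.14). The mean level of 10 cardiomyocyte markers was 2.51 to 3.30 in all 20 hearts. MuRF1 +/+ 8-week replicate 2 and MuRF1 -/- 3-week replicate 4 were the arrays farthest from the rest in a principal component analysis. They also had the lowest shares of heart probes well above background (34.0% and 34.3%). The mean of 5 atrial markers was -0.24 in MuRF1 -/- 3-week replicate 4, against -1.51 to -1.18 in the others of its group. In MuRF1 +/+ 8-week replicate 2 fibroblast markers averaged -1.81 (others of its group -2.78 and -2.54). Its smooth muscle and pericyte markers averaged -0.02 (others -0.92 and -0.88) and its adipocyte markers -1.38 (others -2.42 and -2.07). The mean of 3 measured Y-linked genes (Ddx3y among them) was 0.89 to 1.27 in the chow hearts and -0.97 to -0.18 in the 3-week hearts of both genotypes. It was -0.62 to -0.35 in the MuRF1 +/+ 8-week hearts, and 0.95 and 1.05 in MuRF1 -/- 8-week hearts other than replicate 2, which was at -0.56. Diet and this difference between the animals cannot be told apart in the comparisons with chow, except in part in MuRF1 -/- hearts at 8 weeks. The Y-linked genes also differed between 3 and 8 weeks in MuRF1 -/- hearts (3 of 3 higher at 8 weeks, median log2 difference 1.51). Between genotypes at 8 weeks their median difference was 1.30, with 0 of 3 past the threshold. These comparisons carry the same limit in part. Of 10 endothelial markers, 3 were higher than on chow at 3 weeks in each genotype and at 8 weeks in MuRF1 +/+ hearts, where their mean was 0.51 to 1.63 (1.63 in replicate 2) against 0.38 to 0.40 on chow. Of 10 fibroblast markers, 4 were higher at 3 weeks in MuRF1 +/+ hearts and 2 each at 3 weeks in MuRF1 -/- hearts and at 8 weeks in MuRF1 +/+ hearts. Of all tested genes, 12.3% were higher at 3 weeks in MuRF1 +/+ hearts, 14.4% at 3 weeks in MuRF1 -/- hearts and 5.85% at 8 weeks in MuRF1 +/+ hearts. From 3 to 8 weeks in MuRF1 -/- hearts 5 of the endothelial, 4 of the fibroblast and 4 of 7 leukocyte markers were lower, where 18% of all tested genes were. In whole hearts, fewer cells of a type and less RNA per cell cannot be told apart, and the part of these markers in the results was not tested.

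After 3 weeks of fenofibrate, hexokinase 1 (Hk1) was lower and the heart isoform of the fructose 2,6-bisphosphate enzyme (Pfkfb2) was higher than on chow, by 1.69 to 1.80-fold in both genotypes. After 8 weeks Pfkfb2 was back at or below its chow level, Hk1 had returned part of the way, and Txnip, a protein that restrains glucose uptake, was higher than at 3 weeks. Txnip was also above chow, in calls that were lost when certain single hearts were left out. In MuRF1 +/+ hearts at 8 weeks, 5 of 10 tested genes of lower glycolysis, Ldha and Mpc2 were also lower, where 8.98% of all tested genes were lower. Each of these 7 calls was lost when one or another single heart was left out. All 7 were also lost in a fit of only the compared groups, and with the level of Y-linked genes as a covariate. In that comparison diet cannot be told apart from the Y-linked difference between the animals. No member differed between the genotypes on any diet past the threshold, an adjusted p of 0.05 in limma over all tested genes. Of the 35 members, 21 passed it in at least 1 of the 11 comparisons and 14 in none.

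Against chow at 3 weeks, 2 members rose and 4 fell in MuRF1 +/+ hearts, 17.1% of 35, where 24.5% of all tested genes passed (12.3% higher, 12.2% lower). For MuRF1 -/- hearts 2 rose and 5 fell, 20% of 35, against 26.5% of all genes (14.4% higher, 12.1% lower). The gap between these 3-week shares was not tested and depended on the setting. With the mean of all probes, 10 of 35 members passed in MuRF1 -/- hearts, beside 4015 of all 14564 genes. At 8 weeks 3 rose and 10 fell in MuRF1 +/+ hearts, 37.1% of 35, against 14.8% of all genes (5.85% higher, 8.98% lower). Just 1 rose and 1 fell in MuRF1 -/- hearts at 8 weeks, 5.71% of 35, against 2.23% (1.08% higher, 1.15% lower). The median member differed from chow by -0.05 and -0.20 on the log2 scale at 3 and 8 weeks in MuRF1 +/+ hearts and by -0.09 and 0.02 in MuRF1 -/- hearts, while the median of all genes lay within 0.03 of 0. Between 3 and 8 weeks of fenofibrate 5 rose and 6 fell in MuRF1 +/+ hearts, 31.4% of 35, against 17.8% of all genes (8.12% higher, 9.65% lower). Between the same times 8 rose and 3 fell in MuRF1 -/- hearts, 31.4% of 35, against 31.5% (13.5% higher, 18% lower). Comparisons of one genotype share hearts (the chow group, or a fenofibrate group) and do not support one another.

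**Figure D1:**
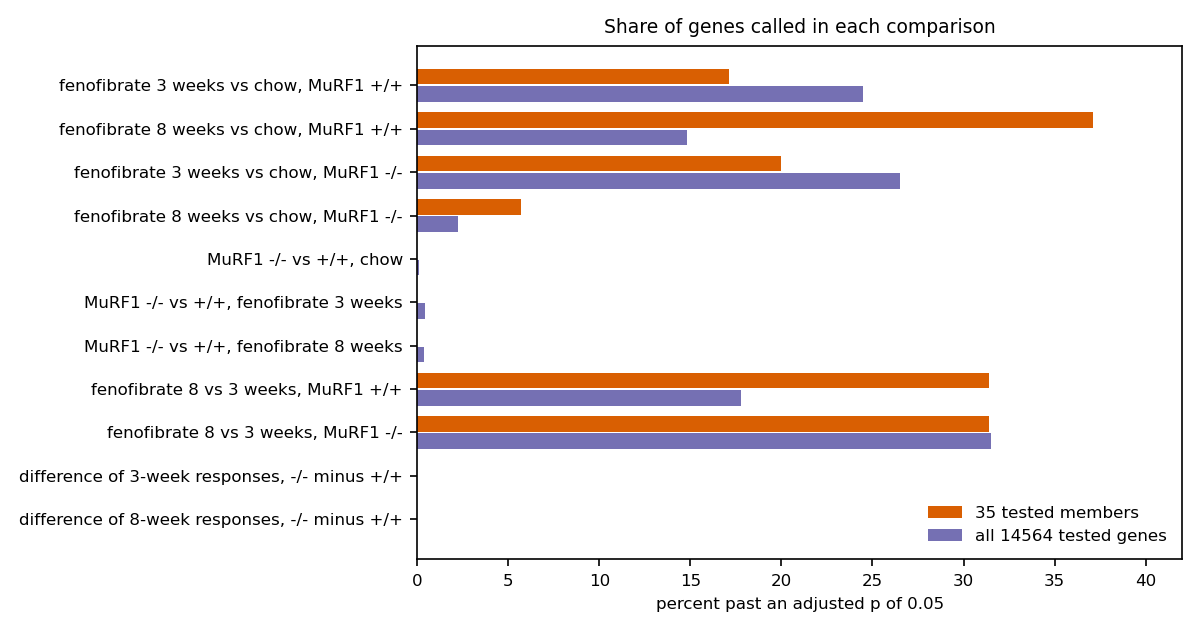
Percentage of genes past the threshold (adjusted p of 0.05 in limma) in each of the 11 comparisons, for the 35 tested members and for all 14564 tested genes. The members stand above all genes most clearly at 8 weeks against chow in MuRF1 +/+ hearts (37.1% against 14.8%). They stand at 0 in the comparisons between genotypes.

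The count at 8 weeks in MuRF1 +/+ hearts depended on the hearts and the fit. Without 8-week replicate 2 it was 7 in place of 13, without chow replicates 1, 2 or 3 it was 4, 8 or 2, and without 8-week replicate 1 it was 18. It was 0 in a fit of these 6 hearts alone and 0 with the mean level of Ddx3y and Eif2s3y as a covariate, fits in which the count over all 14564 genes also dropped, from 2160 to 60 and 77. At 3 weeks the counts ran from 5 to 7 in MuRF1 +/+ hearts and from 5 to 9 in MuRF1 -/- hearts when single hearts were left out, and fell to 2 in each genotype (Hk1 and Pfkfb2) with that covariate, where all genes called went from 3568 to 369 and from 3856 to 472. The 2 calls at 8 weeks in MuRF1 -/- hearts dropped to 1 or 0 whichever chow or 8-week heart was left out. Between 3 and 8 weeks the count of 11 became 7 in MuRF1 +/+ hearts without 8-week replicate 2. In MuRF1 -/- hearts it became 6 without 8-week replicate 2, and 7 without 3-week replicate 1 or 8-week replicate 3. With the covariate 8 of those 11 calls were lost, and Txnip, Hk2 and Pfkfb2 were kept. The slope of this covariate comes from variation within groups, widest in MuRF1 -/- 8-week hearts (replicate 2 at -0.81, the others at 1.45 and 1.34). Where the groups compared share no Y-linked level, as at 3 weeks against chow, a call kept with it is not separated from the Y-linked difference. For single members, the number of alternatives under which a call held is given below out of the 19 or 20 that apply to its comparison, left-out hearts and this covariate included.

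**Figure D2:**
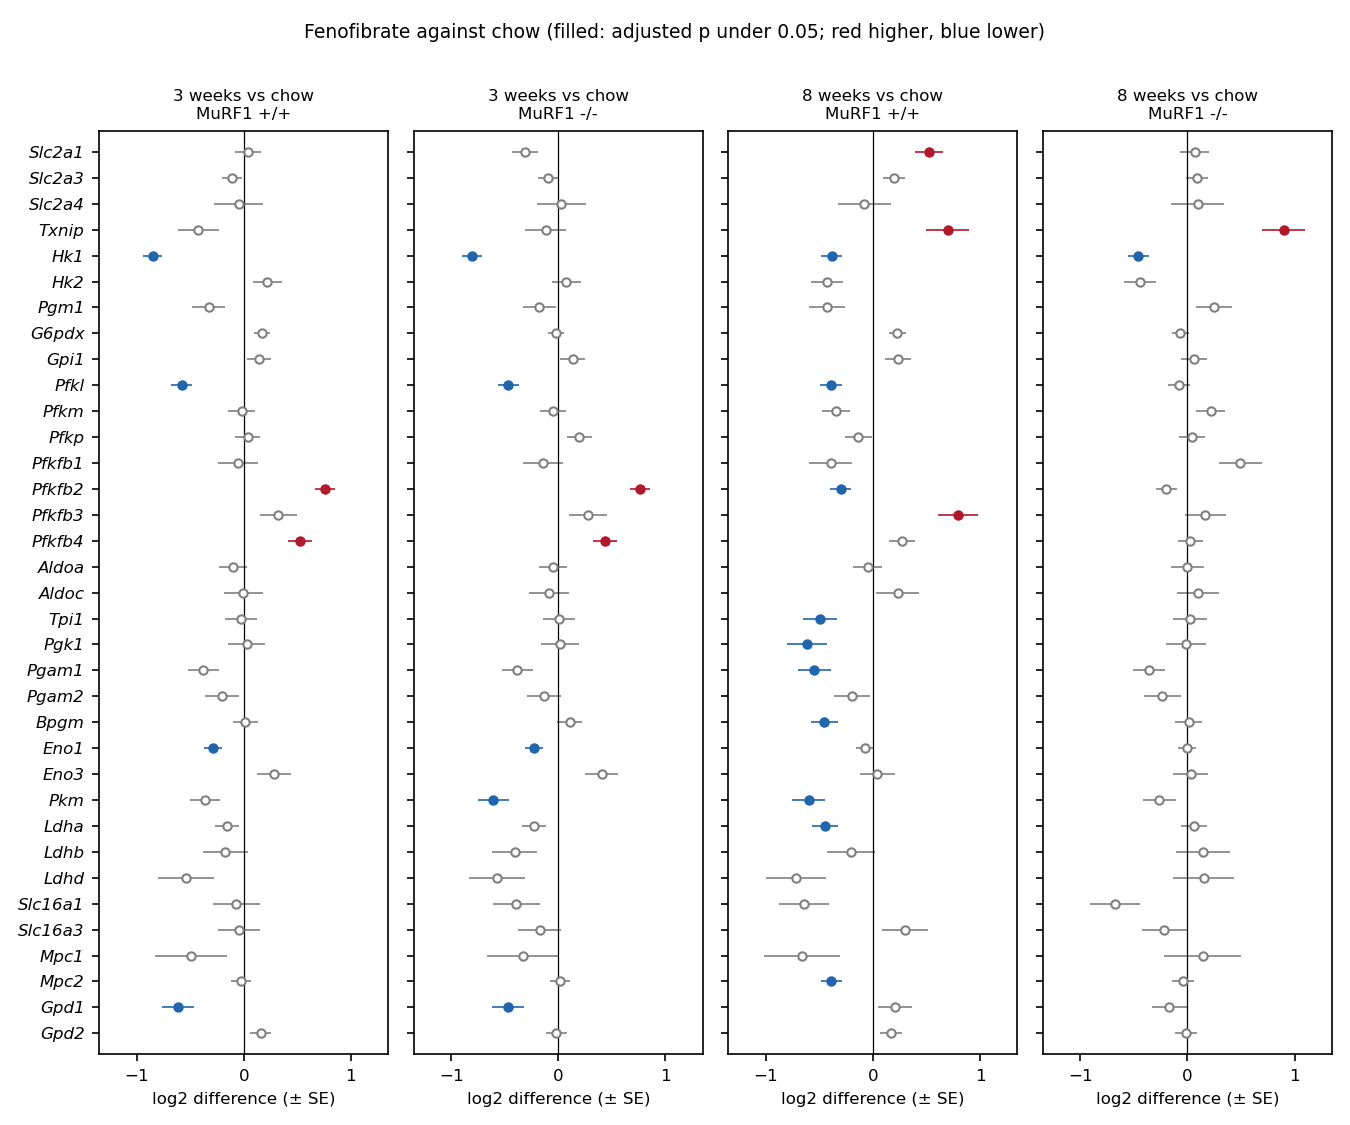
Difference from chow (log2, with its SE) of the 35 tested members after 3 and 8 weeks of fenofibrate in each genotype, ordered by role, with filled points for an adjusted p under 0.05 (red higher, blue lower). Hk1 is lower in all 4 comparisons, Pfkfb2 is higher at 3 weeks only, and most filled points of lower glycolysis lie in the MuRF1 +/+ hearts at 8 weeks.

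Glucose transport held 4 members: the carriers Slc2a1, Slc2a3 (GLUT3) and Slc2a4, and Txnip, an arrestin-like protein that takes glucose carriers off the cell surface. At 3 weeks 0 of 4 passed against chow in limma, and the closest was Slc2a1 in MuRF1 -/- hearts (-0.31 ± 0.13, adjusted p = 0.0759). The level of Slc2a4, the insulin-responsive carrier, was 2.43 to 3.55 over the 20 hearts, with group means of 2.99 to 3.11. Its difference from chow was within 0.10 in all 4 comparisons, with an SE of 0.23 to 0.25, so shifts of that size would not have been detectable.

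Slc2a1 stood at -0.35, -0.52 and -0.41 in the MuRF1 +/+ chow hearts, at -0.17, -0.50, -0.34 and -0.53 at 3 weeks, and at -0.02, 0.03 and 0.30 at 8 weeks. All 3 of the 8-week hearts lay above all chow and 3-week hearts. Slc2a1 was 1.44-fold higher than on chow at 8 weeks (log2 difference 0.53 ± 0.13 SE, adjusted p = 0.0149), and 0.49 ± 0.13 higher than at 3 weeks (adjusted p = 0.0118). The call against chow held under 13 of 19 alternatives, and was lost when 8-week replicate 3 was left out, or when chow replicate 2 or 3 was. The call against 3 weeks was lost without 8-week replicate 3. The MuRF1 -/- hearts were at -0.16, -0.37 and -0.11 on chow, -0.56, -0.80, -0.57 and -0.17 at 3 weeks, and -0.21, -0.02 and -0.21 at 8 weeks. These groups overlapped, with no call against chow (0.07 ± 0.13 at 8 weeks, adjusted p = 0.950) and a rise of 0.38 ± 0.13 between 3 and 8 weeks (adjusted p = 0.0284). That rise held under 12 of 20 alternatives, and not without 3-week replicate 1, 2 or 3 or 8-week replicate 2 or 3. The neuronal-type carrier Slc2a3 rose between 3 and 8 weeks in MuRF1 +/+ hearts (0.31 ± 0.10, adjusted p = 0.0336), a call that held under 10 of 20 alternatives. It was lost without 8-week replicate 2 (0.22, adjusted p = 0.141) or 3 and without 3-week replicate 1, 2 or 3.

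Txnip stood at -0.64, -0.75 and -1.21 on chow, -1.33, -1.21, -1.58 and -1.03 at 3 weeks, and 0.07, -0.31 and -0.26 at 8 weeks in MuRF1 +/+ hearts. Its levels in MuRF1 -/- hearts were -1.55, -0.84 and -1.31 on chow, -1.05, -1.37, -1.40 and -1.58 at 3 weeks, and -0.48, 0.03 and -0.56 at 8 weeks. In both genotypes every 8-week heart was above every chow and 3-week heart. Against chow at 8 weeks Txnip was 1.62-fold higher in MuRF1 +/+ hearts (0.70 ± 0.20, adjusted p = 0.0275) and 1.87-fold higher in MuRF1 -/- hearts (0.90 ± 0.20, adjusted p = 0.0237). Between 3 and 8 weeks it rose 2.18-fold (1.12 ± 0.19, adjusted p = 0.000535) and 2.03-fold (1.02 ± 0.19, adjusted p = 0.000601). The rises from 3 to 8 weeks held under every alternative tried. The call against chow in MuRF1 +/+ hearts held under 11 of 19, was lost when either 8-week replicate 1 or the third chow heart was left out, and was 0.08 (adjusted p = 0.873) with the Y-linked covariate. That in MuRF1 -/- hearts held under 10 of 19 and was lost without 8-week replicate 1 or 2 (0.72, adjusted p = 0.126, without replicate 2), and when chow replicate 1 or 3 was left out. A second Txnip probe rose in MuRF1 +/+ hearts (1.15 from 3 to 8 weeks, adjusted p = 0.00232) but did not pass in MuRF1 -/- hearts (0.41, adjusted p = 0.186).

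Hexokinases trap glucose as glucose 6-phosphate. Hk1, the hexokinase found in most tissues, stood at 1.65, 1.34 and 1.41 in the MuRF1 +/+ chow hearts, at 0.44, 0.68, 0.67 and 0.68 at 3 weeks, and at 0.98, 1.09 and 1.19 at 8 weeks. The MuRF1 -/- values were 1.55, 1.50 and 1.41, then 0.60, 0.78, 0.61 and 0.72, then 0.91, 1.11 and 1.07. The 3 levels did not overlap in either genotype, with chow on top, 3 weeks at the bottom and 8 weeks between.

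Hk1 was 1.80-fold lower than on chow at 3 weeks in MuRF1 +/+ hearts (-0.85 ± 0.09, adjusted p = 1.04e-05) and 1.75-fold lower in MuRF1 -/- hearts (-0.81 ± 0.09, adjusted p = 7.41e-06). At 8 weeks it was 1.30-fold lower (-0.38 ± 0.10, adjusted p = 0.0152) and 1.37-fold lower (-0.46 ± 0.10, adjusted p = 0.0180). From 3 to 8 weeks it rose by 0.47 ± 0.09 (adjusted p = 0.00170) and 0.35 ± 0.09 (adjusted p = 0.00715). The 3-week falls held under every alternative. Within slides they were -1.21 and -0.66 in MuRF1 +/+ hearts and -0.95 to -0.72 in MuRF1 -/- hearts, and the 3 other Hk1 probes that cleared background on 19 or 20 arrays passed too, with differences down to -1.31 and -1.28. The 2 remaining Hk1 probes cleared it on 2 and 0 arrays. The 3-week value was -0.91 and -0.86 with the Y-linked covariate in limma (adjusted p = 0.0138 and 0.00868). As no chow heart shared its Y-linked level with a 3-week heart, that fit cannot separate diet from the Y-linked difference. The 8-week fall in MuRF1 -/- hearts held under 12 of 19 alternatives, and not with the slide as a block (-0.47, adjusted p = 0.0646) or with 8-week replicate 1 or 3, or chow replicate 1 or 2, left out. That in MuRF1 +/+ hearts held under 16 of 19, and not without chow replicate 1. The rises from 3 to 8 weeks held under 18 and 19 of 20.

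Hk2, the insulin-responsive hexokinase of muscle, followed another course. It stood at 1.89, 1.77 and 1.75 on chow, 2.10, 1.93, 2.11 and 1.94 at 3 weeks, and 1.03, 1.56 and 1.52 at 8 weeks in MuRF1 +/+ hearts. For MuRF1 -/- hearts it was 1.92, 1.78 and 1.85, then 1.72, 1.95, 1.75 and 2.28, then 1.47, 1.44 and 1.31. Each 8-week heart was below each chow and 3-week heart of its genotype. Against 3 weeks Hk2 fell 1.57-fold at 8 weeks in MuRF1 +/+ hearts (-0.65 ± 0.14, adjusted p = 0.00307) and 1.43-fold in MuRF1 -/- hearts (-0.52 ± 0.14, adjusted p = 0.00758), under every alternative. The differences from chow at 8 weeks were of like size but did not pass (-0.43 ± 0.15, adjusted p = 0.0557, and -0.44 ± 0.15, adjusted p = 0.136). Hk1 and Hk2 thus had opposite signs between 3 and 8 weeks in both genotypes.

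Pgm1, which links glucose 6-phosphate to glycogen, passed in 1 comparison. It rose between 3 and 8 weeks in MuRF1 -/- hearts (0.43 ± 0.16, adjusted p = 0.0445), from 0.30, 0.18, 0.15 and 0.05 to 0.45, 0.67 and 0.67. The call held under 8 of 20 alternatives, and was lost without any single 8-week heart and without 3-week replicate 2, 3 or 4. On chow Pgm1 was 0.91, 0.90 and 0.84 in MuRF1 +/+ hearts and 0.28, 0.43 and 0.32 in MuRF1 -/- hearts, a difference of -0.54 ± 0.17 that did not pass (adjusted p = 0.973). The array's names Pgm1 and Pgm2 are the reverse of those given by the probes' accessions, which were used. Gpi1 (glucose 6-phosphate isomerase) and G6pdx (the entry to the pentose phosphate path) passed in none.

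**Figure D3:**
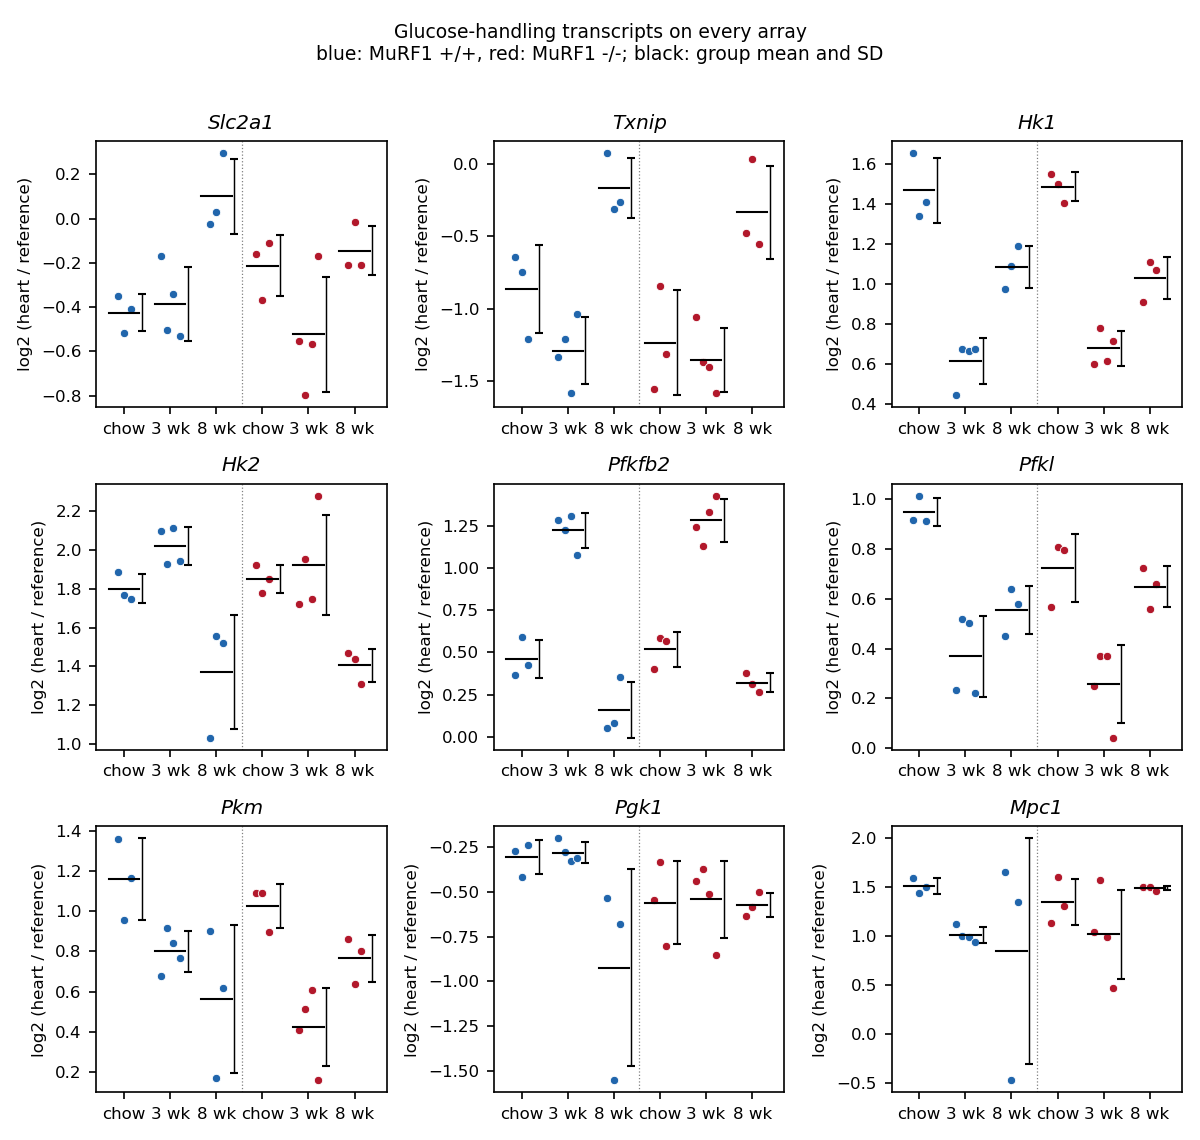
Level (log2 ratio of heart over the reference pool) of 9 members on each of the 20 arrays by diet group, with the mean and SD, MuRF1 +/+ in blue and MuRF1 -/- in red. Hk1 falls and Pfkfb2 rises at 3 weeks in both genotypes, Txnip is highest at 8 weeks, and 1 MuRF1 +/+ heart at 8 weeks lies far below its group in Mpc1 and Pgk1.

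Phosphofructokinase and its regulators held 7 members, of which 2 rose and 1 fell at 3 weeks in each genotype. Pfkfb2, the isoform that raises fructose 2,6-bisphosphate in heart, stood at 0.37, 0.59 and 0.43 on chow, 1.28, 1.22, 1.31 and 1.08 at 3 weeks, and 0.05, 0.08 and 0.35 at 8 weeks in MuRF1 +/+ hearts. The MuRF1 -/- hearts gave 0.40, 0.59 and 0.57, then 1.24, 1.13, 1.33 and 1.43, then 0.38, 0.32 and 0.27. In each genotype the 3-week hearts were the highest and the 8-week hearts the lowest, with no overlap.

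Pfkfb2 rose 1.69-fold at 3 weeks in MuRF1 +/+ hearts (0.76 ± 0.09, adjusted p = 2.97e-05) and 1.70-fold in MuRF1 -/- hearts (0.76 ± 0.09, adjusted p = 1.46e-05). From 3 to 8 weeks it fell 2.08-fold (-1.06 ± 0.09, adjusted p = 1.66e-06) and 1.95-fold (-0.96 ± 0.09, adjusted p = 1.17e-06). These 4 calls held under every alternative, with a size within slides of 0.54 to 0.91 for the rises and of -1.17 to -0.72 for the falls. A second Pfkfb2 probe passed in the same 4 comparisons (0.42, 0.57, -0.72 and -0.64), and the third did not pass at 3 weeks (0.01 and 0.12). The small difference from chow at 8 weeks passed in MuRF1 +/+ hearts (-0.30 ± 0.10, adjusted p = 0.0489) but held under only 3 of 19 alternatives (-0.26, adjusted p = 0.173, without 8-week replicate 2), being lost also without 8-week replicate 1 or any single chow heart. It did not pass in MuRF1 -/- hearts (-0.20, adjusted p = 0.426).

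Pfkl, the liver-type subunit of phosphofructokinase, was 0.92, 1.01 and 0.91 on chow, 0.23, 0.52, 0.50 and 0.22 at 3 weeks and 0.45, 0.64 and 0.58 at 8 weeks in MuRF1 +/+ hearts. It was 0.57, 0.81 and 0.80, then 0.25, 0.37, 0.37 and 0.04, then 0.72, 0.56 and 0.66 in MuRF1 -/- hearts. The 3-week hearts lay below the chow hearts of their genotype, while at 8 weeks only the MuRF1 +/+ hearts did. At 3 weeks Pfkl fell 1.49-fold in MuRF1 +/+ hearts (-0.58 ± 0.10, adjusted p = 0.000418) and 1.38-fold in MuRF1 -/- hearts (-0.47 ± 0.10, adjusted p = 0.00205). These held under 19 and 17 of 20 alternatives, the latter not with all spots in the background fit or with the authors' deposited series matrix. At 8 weeks it was -0.39 ± 0.10 from chow in MuRF1 +/+ hearts (adjusted p = 0.0189) and -0.08 ± 0.10 in MuRF1 -/- hearts (adjusted p = 0.909), and the difference of those responses did not pass (0.32 ± 0.15, adjusted p = 0.284). The 8-week call in MuRF1 +/+ hearts held under 13 of 19 alternatives, and not without chow replicate 2 or 3.

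Pfkm, the muscle-type subunit, passed in none. Its group means ran from 1.17 to 1.52, and its largest difference was in MuRF1 +/+ hearts at 8 weeks (-0.34 ± 0.13, adjusted p = 0.0847). For the platelet-type subunit Pfkp, the probe used gave 0.04 and 0.19 against chow at 3 weeks, while a dimmer probe gave 0.54 (adjusted p = 0.0220) and 0.60 (adjusted p = 0.0112), so its probes disagreed.

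Of the other Pfkfb genes, Pfkfb4 rose 1.44-fold at 3 weeks in MuRF1 +/+ hearts (0.53 ± 0.11, adjusted p = 0.00239) and 1.35-fold in MuRF1 -/- hearts (0.44 ± 0.11, adjusted p = 0.00832). Its levels were -1.47 to -1.14 on chow and -0.86 to -0.70 at 3 weeks in MuRF1 +/+ hearts, and -1.51 to -0.99 and -0.94 to -0.68 in MuRF1 -/- hearts. Neither pair of groups overlapped. By 8 weeks Pfkfb4 had fallen again in MuRF1 -/- hearts (-0.41 ± 0.11 from 3 weeks, adjusted p = 0.0101). The 3-week rises held under 19 and 16 of 20 alternatives, that in MuRF1 -/- hearts not without chow replicate 3, and the later fall under 18 of 20.

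Pfkfb3, an isoform with strong kinase activity, was higher than on chow at 8 weeks in MuRF1 +/+ hearts (1.74-fold, 0.80 ± 0.19, adjusted p = 0.00972). The chow hearts were at -1.67, -1.59 and -1.72 and the 8-week hearts at -1.35, -0.20 and -1.05. The groups did not overlap, and replicate 2, the array that stood apart, was the highest. The call held under 16 of 19 alternatives, among them each with a single heart left out. Pfkfb3 in MuRF1 -/- hearts was -1.68 to -1.44 on chow and -1.49 to -1.28 at 8 weeks (0.17 ± 0.19, adjusted p = 0.854). Pfkfb1, the liver and muscle isoform, rose in MuRF1 -/- hearts between 3 and 8 weeks (0.63 ± 0.19, adjusted p = 0.0154), from -0.25, -0.07, 0.43 and 0.35 to 0.72, 0.87 and 0.66, a call lost without 8-week replicate 2 or 3-week replicate 1.

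Lower glycolysis, from aldolase to pyruvate kinase, held 10 tested members, and none rose against chow. In MuRF1 +/+ hearts 1 fell at 3 weeks and 5 fell at 8 weeks, with a median of -0.33 at 8 weeks. Of the same 10, 2 fell in MuRF1 -/- hearts at 3 weeks and 0 passed at 8 weeks, with a median of -0.0017. The 5 were Tpi1, Pgk1, Pgam1, Bpgm and Pkm.

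Pkm, pyruvate kinase of muscle, stood at 1.36, 0.96 and 1.17 on chow, 0.68, 0.92, 0.84 and 0.77 at 3 weeks, and 0.90, 0.17 and 0.62 at 8 weeks in MuRF1 +/+ hearts. It was 1.09, 1.09 and 0.90, then 0.41, 0.52, 0.61 and 0.16, then 0.86, 0.64 and 0.80 in MuRF1 -/- hearts. In both genotypes every chow heart was above every fenofibrate heart. Pkm fell 1.52-fold at 3 weeks in MuRF1 -/- hearts (-0.61 ± 0.14, adjusted p = 0.00445) and 1.51-fold at 8 weeks in MuRF1 +/+ hearts (-0.60 ± 0.15, adjusted p = 0.0147). The first held under 19 of 20 alternatives and the second under 14 of 19, the latter lost when 8-week replicate 2 was left out, or chow replicate 1 or 3. The 3-week difference in MuRF1 +/+ hearts was -0.36 ± 0.14 (adjusted p = 0.0731), where a second Pkm probe passed (-0.57, adjusted p = 0.00495), and the difference of the 3-week responses was -0.25 ± 0.20 (adjusted p = 0.999).

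Pgk1, phosphoglycerate kinase, makes the first ATP of glycolysis. It was -0.27, -0.41 and -0.24 on chow, -0.20, -0.28, -0.33 and -0.31 at 3 weeks, and -0.53, -1.55 and -0.68 at 8 weeks in MuRF1 +/+ hearts. The 8-week hearts lay below the others, and replicate 2 far below. Pgk1 was lower than on chow by 0.62 ± 0.19 (log2 difference -0.62, adjusted p = 0.0346) and lower than at 3 weeks (-0.64 ± 0.18, adjusted p = 0.0163). Without that heart neither passed (-0.30, adjusted p = 0.190, and -0.33, adjusted p = 0.0708), and the call against chow was lost without any single chow heart, holding under 9 of 19 alternatives. MuRF1 -/- hearts had it at -0.80 to -0.33 on chow and -0.63 to -0.50 at 8 weeks (-0.01 ± 0.19, adjusted p = 0.994).

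Tpi1, triose phosphate isomerase, had the same form: 0.06 to 0.18 on chow, -0.01 to 0.20 at 3 weeks and -0.14, -0.80 and -0.20 at 8 weeks in MuRF1 +/+ hearts. It was -0.50 ± 0.16 from chow (adjusted p = 0.0430), and -0.29 (adjusted p = 0.259) without 8-week replicate 2, a call that held under 5 of 19 alternatives and was lost without any single chow heart. Against 3 weeks it was -0.47 (adjusted p = 0.0346), which held under 10 of 20 and was lost without 8-week replicate 2 or 3-week replicate 1, 2 or 4. Pgam1, a phosphoglycerate mutase, was -0.97 to -0.90 on chow and -1.55 to -1.33 at 8 weeks (-0.55 ± 0.15, adjusted p = 0.0230), and -0.51 (adjusted p = 0.0845) without 8-week replicate 2. Its call held under 12 of 19 alternatives, and was also lost when 8-week replicate 3 was left out, or chow replicate 1 or 3. Bpgm, which makes 2,3-bisphosphoglycerate, was -0.23 to -0.06 on chow and -0.80 to -0.52 at 8 weeks (-0.46 ± 0.13, adjusted p = 0.0218), and also fell between 3 and 8 weeks (-0.47 ± 0.12, adjusted p = 0.00982). The Bpgm values of the 8-week hearts were -0.54, -0.52 and -0.80, and the call against chow held under 12 of 19 alternatives, with losses on leaving out 8-week replicate 3, chow replicate 1 or chow replicate 3. The call against 3 weeks was lost without 8-week replicate 3 and with the mean of all probes.

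Eno1, the enolase of most tissues, was lower at 3 weeks by a small amount, -0.29 ± 0.08 in MuRF1 +/+ hearts (adjusted p = 0.0164) and -0.23 ± 0.08 in MuRF1 -/- hearts (adjusted p = 0.0473). Its levels were -0.24 to -0.16 on chow and -0.56 to -0.45 at 3 weeks in MuRF1 +/+ hearts, and -0.36 to -0.23 and -0.72 to -0.34 in MuRF1 -/- hearts, where the groups overlapped. It rose back by 0.22 at 8 weeks in MuRF1 -/- hearts (adjusted p = 0.0449). The fall in MuRF1 +/+ hearts held under 18 of 20 alternatives, and not without chow replicate 1. Both MuRF1 -/- calls held under 9 of 20: the fall was lost without 3-week replicate 1 or 3 or any single chow heart, and the rise without 3-week replicate 1 or 3 or any single 8-week heart. The muscle enolase Eno3, the muscle mutase Pgam2 and the aldolases Aldoa and Aldoc passed in none. Aldoc stood above background on 12 of 20 arrays, and the Aldoa value of MuRF1 -/- 8-week replicate 3 was missing. The Gapdh probe gave -0.20 to 0.31, which is no measured level.

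The lactate and pyruvate group held 7 members, of which 2 fell at 8 weeks in MuRF1 +/+ hearts (median -0.44) and 0 of 7 passed in the other comparisons with chow. Lactate dehydrogenase is built from an A subunit (Ldha) and the B subunit typical of heart (Ldhb). Ldha was 0.55, 0.16 and 0.47 on chow and -0.00, -0.31 and 0.16 at 8 weeks in MuRF1 +/+ hearts, groups that met at 0.16. It fell by 0.44 ± 0.12 (log2 difference -0.44, adjusted p = 0.0203), and the difference was -0.31 (adjusted p = 0.120) without 8-week replicate 2. The call held under 13 of 19 alternatives, and was also lost without chow replicate 1 or 3. Ldha in MuRF1 -/- hearts was -0.05 to 0.24 on chow and 0.09 to 0.17 at 8 weeks (0.06 ± 0.12, adjusted p = 0.951). Ldhb was at 3.26 to 3.93 over the hearts measured, passed in none, and had 2 values in place of 3 in the MuRF1 -/- 8-week group.

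Ldhd, a mitochondrial dehydrogenase of D-lactate, rose between 3 and 8 weeks in MuRF1 -/- hearts (0.72 ± 0.26, adjusted p = 0.0443), from 0.92, 0.98, 1.17 and 0.31 to 1.39, 1.73 and 1.59. The call held under 7 of 20 alternatives, was lost without any single 8-week heart and without 3-week replicate 1, 2 or 4, and a second Ldhd probe gave 0.64. That second probe was also lower at 3 weeks in both genotypes (-0.62 and -0.60), where the probe used gave -0.54 and -0.57 without passing (adjusted p = 0.150 and 0.122).

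Slc16a1 (MCT1), the lactate carrier of heart muscle, was 2.15, 2.05 and 2.05 on chow and 1.62, 0.63 and 2.07 at 8 weeks in MuRF1 +/+ hearts. In MuRF1 -/- hearts it was 2.60, 2.19 and 2.26 on chow and 1.59, 1.79 and 1.64 at 8 weeks. The groups overlapped in MuRF1 +/+ hearts and did not in MuRF1 -/- hearts. The differences were close in size and neither passed (-0.64 ± 0.23, adjusted p = 0.0699, and -0.67 ± 0.23, adjusted p = 0.162), although other Slc16a1 probes passed in MuRF1 +/+ hearts (-0.41 and -0.85). Slc16a3 (MCT4), the carrier of lactate-exporting cells, passed in none.

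Mpc1 and Mpc2 form the carrier that brings pyruvate into mitochondria. Mpc2 was 1.62, 1.49 and 1.57 on chow, 1.51 to 1.57 at 3 weeks and 1.33, 0.94 and 1.25 at 8 weeks in MuRF1 +/+ hearts, with the 8-week hearts below all others. It fell by 0.39 ± 0.10 against chow (log2 difference -0.39, adjusted p = 0.0159) and by 0.37 ± 0.09 against 3 weeks (-0.37, adjusted p = 0.0112). Without 8-week replicate 2 these were -0.27 (adjusted p = 0.0837) and -0.25 (adjusted p = 0.0510). The call against chow was lost without chow replicate 1 or 3 as well, and the calls held under 13 of 19 and 17 of 20 alternatives. In MuRF1 -/- hearts Mpc2 was 1.33 to 1.56 on chow and 1.36 to 1.46 at 8 weeks (-0.04 ± 0.10, adjusted p = 0.965).

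The 8-week difference of Mpc1 in MuRF1 +/+ hearts rested on 1 heart. Its values were 1.59, 1.43 and 1.50 on chow, 1.12, 1.00, 0.99 and 0.93 at 3 weeks, and 1.65, -0.47 and 1.35 at 8 weeks in MuRF1 +/+ hearts. The difference from chow at 8 weeks was -0.66 ± 0.36 (adjusted p = 0.201) with all hearts and -0.0059 without replicate 2. Between 3 and 8 weeks it was -0.17 ± 0.33 (adjusted p = 0.765), and 0.49 (adjusted p = 0.0177) without both arrays that stood apart. All 4 of the 3-week hearts were below all 3 chow hearts, by 0.49 ± 0.33 (log2 difference -0.49, adjusted p = 0.306). Replicate 2 at 8 weeks has no part in that difference, but enters its SE because all groups share one estimate of the spread. Within slides the 3-week difference was -0.47 and -0.43 in MuRF1 +/+ hearts and -0.31 to -0.03 in MuRF1 -/- hearts.

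Gpd1, the cytosolic enzyme of the glycerol phosphate shuttle that carries electrons of glycolysis to mitochondria, fell at 3 weeks in both genotypes. Its levels were -1.54, -1.57 and -1.60 on chow, -2.36, -2.29, -1.95 and -2.14 at 3 weeks, and -0.99, -1.46 and -1.65 at 8 weeks in MuRF1 +/+ hearts. The MuRF1 -/- hearts gave levels of -1.81, -1.71 and -2.02, then -2.40, -2.38, -2.50 and -2.01, then -1.98, -2.20 and -1.87. At 3 weeks the groups were apart in MuRF1 +/+ hearts and met at replicate 4 in MuRF1 -/- hearts. The falls were 1.53-fold (-0.62 ± 0.15, adjusted p = 0.00623) and 1.39-fold (-0.47 ± 0.15, adjusted p = 0.0263), and a second Gpd1 probe passed in both (-0.41 and -0.39). The first held under 19 of 20 alternatives. That in MuRF1 -/- hearts held under 10 of 20, was lost when 3-week replicate 1, 2 or 3, or chow replicate 1 or 2, was left out, and was -0.16 (adjusted p = 0.761) with the Y-linked covariate. Gpd1 then rose 1.77-fold from 3 to 8 weeks in MuRF1 +/+ hearts (0.82 ± 0.15, adjusted p = 0.00102). Gpd2, the mitochondrial enzyme of the shuttle, passed in none.

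**Figure D4:**
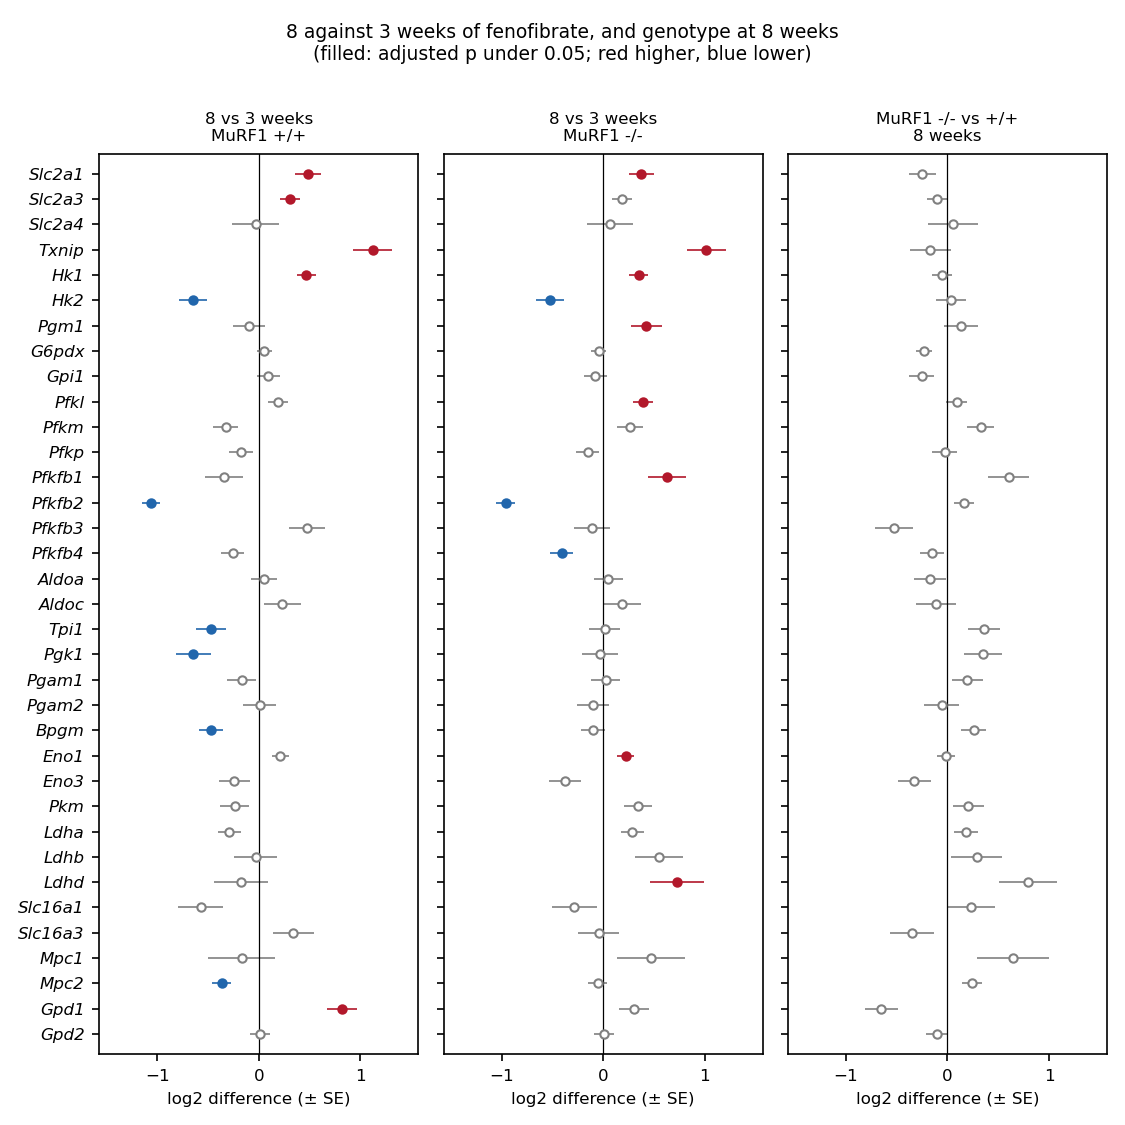
Difference (log2, with its SE) of the 35 tested members between 8 and 3 weeks of fenofibrate in each genotype, and between MuRF1 -/- and MuRF1 +/+ hearts at 8 weeks, with filled points for an adjusted p under 0.05. Txnip, Hk1 and Slc2a1 are higher and Hk2 and Pfkfb2 lower at 8 weeks in both genotypes, and no point of the genotype comparison is filled.

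Between genotypes, 0 of 35 members passed in limma on chow, at 3 weeks and at 8 weeks, where 0.0893%, 0.405% and 0.357% of all tested genes passed. At an unadjusted p of 0.05, 3, 5 and 8 of the 35 members passed, beside 464, 785 and 3246 of all 14564 tested genes. With array weights 1, 1 and 6 members passed, beside 50, 307 and 2547 of all genes. Without MuRF1 +/+ 8-week replicate 1 the members' count at 8 weeks was 7, which was not set against all genes. The smallest adjusted p at 8 weeks was that of Gpd1 (-0.65 ± 0.16, adjusted p = 0.0664), with the MuRF1 -/- hearts below the MuRF1 +/+ hearts. Ldha at 3 weeks had the smallest of that diet (-0.39 ± 0.10, adjusted p = 0.169).

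The responses to fenofibrate were also compared between genotypes. Of the 35 members, 0 differed in their 3-week response and 0 in their 8-week response, as did 0% of all tested genes. At an unadjusted p of 0.05 the members' counts were 0 and 13, beside 330 and 2520 of all 14564 tested genes. With array weights 0 and 6 members passed, beside 17 and 2025 of all genes. Without MuRF1 +/+ 8-week replicate 1 the members' 8-week count was 4, which was not set against all genes. Of the members that passed at 8 weeks in MuRF1 +/+ hearts alone, Tpi1, Pgk1, Bpgm, Ldha and Mpc2 had 8-week responses 0.35 to 0.60 higher in MuRF1 -/- hearts, with adjusted p-values of 0.202 to 0.264. A difference between the genotypes was therefore not shown for them.

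A list of 64 further genes of glucose, glycogen and pyruvate metabolism, 54 of them tested, held 5 genes that rose and 14 that fell at 3 weeks in MuRF1 +/+ hearts, and 4 and 12 in MuRF1 -/- hearts (35.2% and 29.6% of the 54, against 24.5% and 26.5% of all tested genes). Pdk2, a pyruvate dehydrogenase kinase, fell by 1.14 and 1.05 (log2 differences -1.14 and -1.05), and Gys1, muscle glycogen synthase, by 0.98 and 1.04 (-0.98 and -1.04). G6pc3, a glucose 6-phosphatase, gave -0.82 and -0.76. Slc2a8 (GLUT8) gave -0.75 in MuRF1 +/+ hearts, and Pygm, muscle glycogen phosphorylase, gave -0.71 in MuRF1 -/- hearts. The medians of this list were -0.12 and -0.07.

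At 8 weeks 3 of the 54 were higher and 9 lower in MuRF1 +/+ hearts, and 1 higher and 0 lower in MuRF1 -/- hearts (22.2% and 1.85%, against 14.8% and 2.23% of all genes). Pdk4 was the gene of largest difference in both (2.83, adjusted p = 9.63e-05, and 2.40, adjusted p = 0.00110), and did not pass at 3 weeks in MuRF1 +/+ hearts (0.48, adjusted p = 0.318). In MuRF1 -/- hearts it stood at 0.18, -0.39, -0.88 and -0.58 at 3 weeks and at -0.31, -0.81 and -0.31 on chow, groups that overlapped. Gbe1, the glycogen branching enzyme, gave -0.90 and Pdp1, a pyruvate dehydrogenase phosphatase, -0.82 in MuRF1 +/+ hearts. From 3 to 8 weeks 7 rose and 4 fell in MuRF1 +/+ hearts, and 15 rose and 3 fell in MuRF1 -/- hearts. These were 20.4% and 33.3% of the 54, near the 17.8% and 31.5% of all genes. Pdk2 (0.68 and 1.05) and, in MuRF1 -/- hearts, Gys1 (1.09) and Pygb (1.23) were among those that rose. Pdk4 moved further, from -0.77 to -0.12 at 3 weeks to 1.20 to 2.87 at 8 weeks in MuRF1 +/+ hearts. Its range in MuRF1 -/- hearts was -0.88 to 0.18 at 3 weeks and 1.38 to 2.65 at 8 weeks. Between genotypes 0, 0 and 3 of the 54 passed on chow, at 3 weeks and at 8 weeks (0%, 0% and 5.56%, against 0.0893%, 0.405% and 0.357% of all genes). Those 3 were Gbe1 (0.77), Gpt (0.72) and H6pd (-0.50).

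Of 20 genes of the hypoxia response, 18 were tested. At 3 weeks 3 rose and 1 fell in each genotype, 22.2% of 18, near the 24.5% and 26.5% of all tested genes. Epas1, which encodes the hypoxia-inducible factor HIF-2α, rose by 1.30 and 1.35, and Egln3, a prolyl hydroxylase that marks these factors for breakdown, gave -0.70 and -0.75. At 8 weeks 4 rose and 3 fell in MuRF1 +/+ hearts and 0 rose and 1 fell in MuRF1 -/- hearts (38.9% and 5.56%, against 14.8% and 2.23%), with Egln3 at -1.31 and -0.99. Vegfa, an endothelial growth factor, rose by 0.38 and 0.61 at 3 weeks and fell again by 8 weeks (-0.57 and -0.68). Of the 10 endothelial markers, 3 were also higher at 3 weeks in each genotype, where 12.3% and 14.4% of all tested genes were. The part of these markers in the hypoxia values was not tested.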

How the data were processed

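Heart RNA (Cy5 per the channel labels, Cy3 per the protocol text; the channel labels were used) and a common pool of newborn pups were hybridised on 20 two-colour Agilent arrays (design 014868) on 5 slides. Heart RNA came from a Qiagen AllPrep kit per the labels. All arrays ran the same way (correlations of 0.746 to 0.983), and no dye swap is labelled.

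The deposited scanner files hold spot intensity and local background intensity, not normalized, written by Agilent Feature Extraction 9.5.3.1 per the file headers. They also hold per-spot flags, and the log10 ratio of Cy5 over Cy3 that Agilent's software made, deposited after its background subtraction and dye normalization. The authors' deposited series matrix holds log2 values of the same arrays, with a processing not given in the sources used here. Against Agilent's ratio its slopes were 0.949 to 0.994 and its column medians -0.0060 to 0.0093, so scale and direction were settled.

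Normexp background correction (offset 50) and loess within each array were done in limma 3.58.1 under R 4.3.3, and data.table (release 1.17.8) read the tables. Slides were told by scan and grid entries, which agreed. The barcode entry of 4 arrays names another slide, at positions held there by 4 other arrays, and was not used. Controls had weight 0 in loess, outlier spots (105 to 423 per array) were missing, and 0 heart spots were saturated. As a departure from the plan, 7 spots of MuRF1 -/- chow replicate 2, whose local background exceeded their signal by over 50, were left out of the background fit. The planned fit is an alternative. Spots of a probe were averaged (43379 spots, 41174 probes), and 22951 probes were named by accession through RefSeq (GRCm38.p6), 6659 by current symbol, 3109 by synonym, 294 by gene ID and 8161 by the name in the files. A gene was tested if the heart signal of its brightest probe cleared background on 3 or more arrays. One model over 6 groups with moderated variance (lmFit, eBayes with trend) gave 11 comparisons, with Benjamini-Hochberg adjustment over 14564 genes at 0.05. It was tested on simulated data. Precision is limited by how many arrays there are.

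The members, the further lists and the settings were chosen with earlier results of these data known. Members past the threshold in at least 1 comparison are described in full, as are 14 fixed by name whatever their values. Of the further metabolic genes, at most 4 per comparison are named, by largest difference among those past the threshold. The hypoxia genes named were chosen after their values were seen. Replicate numbers in the titles did not pair the hearts (deviations of same-numbered hearts correlated at -0.58 to 0.45). Alternatives covered background fit, normalization, filter, probe choice, slide, replicate number, array weights, groups in the fit, a Y-linked covariate and left-out hearts.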

Additional observations from a re-analysis of the deposited data

Results flagged for a closer look

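In 5 of 70 checks of a member over a group of 4 hearts, 1 heart lay far from the other 3, where chance gives about 1 in 20. Hk1 was 0.44 in MuRF1 +/+ 3-week replicate 1, against 0.67 to 0.68 in the others. Pfkm was 1.29 and Pgam1 -1.02 in MuRF1 +/+ 3-week replicate 3. Gpi1 was 0.98 and Eno3 1.47 in MuRF1 -/- 3-week replicate 4, an array that stood apart.

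Levels differed between 8 and 3 weeks of fenofibrate, as 8-week minus 3-week log2 difference tested in limma, in 11 members of each genotype. The responses at both times use the same chow hearts, which drop out of the difference. With no chow group of 3 weeks, a changed response to fenofibrate cannot be told apart from other differences between the 3-week and 8-week hearts. In MuRF1 +/+ hearts these were Txnip (1.12), Gpd1 (0.82), Slc2a1 (0.49), Hk1 (0.47), Slc2a3 (0.31), Mpc2 (-0.37), Bpgm (-0.47), Tpi1 (-0.47), Pgk1 (-0.64), Hk2 (-0.65) and Pfkfb2 (-1.06). In MuRF1 -/- hearts they were Txnip (1.02), Ldhd (0.72), Pfkfb1 (0.63), Pgm1 (0.43), Pfkl (0.39), Slc2a1 (0.38), Hk1 (0.35), Eno1 (0.22), Pfkfb4 (-0.41), Hk2 (-0.52) and Pfkfb2 (-0.96). With the Y-linked covariate 8 of these 11 were lost, and Txnip, Hk2 and Pfkfb2 were kept.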

How the results depend on the processing

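Of 50 calls of a member in a comparison, 10 held under every alternative (Hk1 and Pfkfb2 at 3 weeks, and Pfkfb2, Hk2 and Txnip between 3 and 8 weeks, in both genotypes), and 0 of 50 reversed. At 3 weeks against chow the Y-linked covariate among these alternatives cannot separate diet from the Y-linked difference. Calls kept ran from 19 of 50 with the Y-linked covariate and 29 with only the compared groups in the fit to 50 with a strict filter on dim probes. Among 335 uncalled values 1 reversed: Mpc1 between 3 and 8 weeks in MuRF1 +/+ hearts was 0.49 without both arrays that stood apart.

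Counts of members called moved as follows, with MuRF1 +/+ before MuRF1 -/- hearts. After each setting the counts over all 14564 tested genes follow in the same order. With the Y-linked covariate the members' counts were 2 and 2 at 3 weeks, 0 and 1 at 8 weeks, and 3 between 8 and 3 weeks in MuRF1 -/- hearts (all genes: 369, 472, 77, 210 and 2004). With array weights the members' counts were 15 and 12 at 3 weeks, 20 and 6 at 8 weeks, and 17 between 8 and 3 weeks in MuRF1 -/- hearts (all genes: 6791, 5773, 5484, 1542 and 7004). They were 1, 1 and 6 between genotypes on chow, at 3 and at 8 weeks, and 6 for the difference of the 8-week responses (all genes: 50, 307, 2547 and 2025). With only the compared groups the members' counts were 13 at 3 weeks and 0 at 8 weeks in MuRF1 +/+ hearts, 4 at 8 weeks in MuRF1 -/- hearts, 7 between 8 and 3 weeks in MuRF1 +/+ hearts and 1 between genotypes on chow (all genes: 5859, 60, 937, 1015 and 17). Without both arrays that stood apart the members' counts were 12 and 11 at 3 weeks, 4 at 8 weeks in MuRF1 -/- hearts, and 1 and 2 between genotypes on chow and at 3 weeks (all genes: 5281, 5308, 1015, 19 and 199). With the series matrix the members' counts were 4 at 3 weeks in MuRF1 -/- hearts, and 7 and 0 at 8 weeks (all genes: 2233, 945 and 167). The slide as a block gave 0 at 8 weeks in MuRF1 -/- hearts and 7 between 8 and 3 weeks in MuRF1 +/+ hearts (all genes: 84 and 1820). Agilent's ratio and the mean of all probes each gave 1 at 8 weeks in MuRF1 -/- hearts, and all spots in the background fit gave 7 between 8 and 3 weeks there (all genes: 369, 312 and 3908). The causes were not tested.

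The replicate block, with numbers that did not pair the hearts, gave 6 and 6 at 3 weeks, 11 and 2 at 8 weeks, and 12 and 10 between 8 and 3 weeks (all genes: 2992, 3481, 2220, 311, 2743 and 4200). With single hearts left out, counts ran from 5 to 7 and 5 to 9 at 3 weeks, 2 to 18 and 0 to 1 at 8 weeks, and 7 to 12 and 6 to 11 between 8 and 3 weeks. Between genotypes they were 0 to 0 on chow and at 3 weeks and 0 to 7 at 8 weeks, and for the differences of responses 0 to 0 and 0 to 4. Signal over background left Gapdh and Pgm2 without a measured level.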
